A study of Mus musculus with 6 samples.

Results

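The 4 CC chemokine genes whose products are grouped as ligands of the chemokine receptor CCR2, namely Ccl2, Ccl7, Ccl8 and Ccl12, were followed in monocytes sorted from the bone marrow of B6 mice. They were found by gene symbol and are 4 of the 24421 gene entries in the count table. The rule that groups them uses their receptor and no measured value, but the members were chosen with earlier results of these data known. RNA-seq was done on 3 libraries from fresh monocytes exposed for 3 h to 5 ng of GM-CSF (granulocyte-macrophage colony-stimulating factor, which drives growth and activation of myeloid cells), and on 3 control libraries. The labels give no volume for the dose, no age and no sex, and they list no genetic modification. All 6 libraries share the strain and the sorted cell type. The control libraries are labelled as freshly isolated, while the protocol text speaks of culture with or without the cytokine. If the controls were not cultured, GM-CSF and time in culture cannot be told apart. Whether the replicates are separate animals is not stated, and the p-values therefore reflect the spread among these 6 libraries only, part of which may be technical.

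CCR2 is a G protein-coupled receptor on classical monocytes. Its ligands are small secreted proteins of the monocyte chemoattractant protein (MCP) family, and signalling through CCR2 is needed for monocytes to leave the bone marrow and to enter inflamed tissue. CCL2 (MCP-1) and CCL7 (MCP-3) are the main CCR2 ligands in mice, CCL12 (MCP-5) is a mouse MCP with no direct human counterpart, and CCL8 (MCP-2) of the mouse acts mainly through another receptor, CCR8. The proteins carry a pair of adjacent cysteines, the "CC" that names the family, and the N-terminal glutamine of CCL2 and CCL7 can be turned into pyroglutamate. Activated monocytes, macrophages, fibroblasts and endothelial cells can all make CCL2.

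The 4 genes lie on the plus strand of chromosome 11 within 1 cluster, and each coding transcript has 3 exons. On GRCm38, with GENCODE M21 annotation, Ccl2 spans 82035571 to 82037453, Ccl7 spans 82045712 to 82047525, Ccl12 spans 82101845 to 82103400 and Ccl8 spans 82115185 to 82116799. All are annotated as protein-coding. Ccl11, which encodes the eosinophil chemoattractant eotaxin, is the only other gene of the count table placed between Ccl2 and Ccl8. To show how alike and how distinct the members are in the messages that were counted, the coding sequence around the cysteine pair is printed for each, 5′ to 3′ on the coding strand, with the codons of the pair in capitals. The stretches run over 54 coding bases, at chr11:82036485-82036538 for Ccl2, chr11:82045859-82046570 for Ccl7, chr11:82102613-82102666 for Ccl12 and chr11:82115309-82116088 for Ccl8. Those of Ccl7 and Ccl8 are joined across an intron.
Ccl2: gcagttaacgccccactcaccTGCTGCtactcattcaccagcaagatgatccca
Ccl7: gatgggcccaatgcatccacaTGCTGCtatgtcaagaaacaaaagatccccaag
Ccl12: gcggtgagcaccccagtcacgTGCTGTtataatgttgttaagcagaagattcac
Ccl8: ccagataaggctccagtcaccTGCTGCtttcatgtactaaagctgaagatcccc
In these stretches Ccl8 and Ccl12 had 36 of 54 bases in common, the most of any pair, and Ccl7 and Ccl8 had 20, the fewest. The whole coding sequences had 148 codons in Ccl2, 104 in Ccl12 and 97 each in Ccl7 and Ccl8, and identity between pairs ran from 68.8% to 72.1% of aligned bases. The longest run shared by any pair of transcripts was 23 bases, between Ccl2 and Ccl7, whereas each read covered 150 bases.

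Ccl2 was far higher in the GM-CSF libraries. Its level in CPM, the reads of a gene scaled to all reads assigned to genes in that library, was 13.6, 6.34 and 7.84 in control replicates 1, 2 and 3 and 383, 275 and 259 in GM-CSF replicates 1, 2 and 3. The groups did not overlap, and the lowest GM-CSF library stood 19.1-fold above the highest control library. Control replicate 1 was the highest control, 2.14-fold above the lowest, and its exact Poisson 95% interval (12.2 to 15.1 CPM) did not reach those of the other controls. Control libraries averaged 9.26 ± 3.82 CPM and GM-CSF libraries 306 ± 67.2 CPM (SD, n = 3 each), and the log2 fold change was 5.05 ± 0.26 (SE; edgeR quasi-likelihood test, adjusted p = 4.72e-08). Of all 11731 genes tested, 32.8% were higher at an adjusted p under 0.05, 34.9% were higher with no overlap between the groups, and 1.02% had a log2 fold change at least as large as that of Ccl2.

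Ccl7 went from almost no reads to a clear signal. The control libraries held 1, 2 and 0 Ccl7 reads, and the GM-CSF libraries 922, 612 and 647, which is 54.9, 36.8 and 30.1 CPM. Every GM-CSF library was therefore far above every control, and GM-CSF replicate 1 was the highest. With 3 control reads in all, the ratio of summed reads per total was 927 with a 95% counting interval of 317 to 4500. The test gave a log2 fold change of 9.71 ± 0.43 (SE; edgeR adjusted p = 1.47e-08), which was the 10th largest rise of all genes tested. That fitted value rests on so few control reads that it moved to 10.48 without control replicate 2, which held 2 of the 3. Counting intervals and limits here cover counting error only, since reads carry no molecular identifiers.

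Ccl12 rose as well, at a level well under that of Ccl2, and 0.938% of all genes tested had a log2 fold change at least as large. It had 6, 2 and 0 reads in the control libraries and 102, 68 and 64 in the GM-CSF libraries, or 6.08, 4.09 and 2.98 CPM in the latter. The groups did not overlap, and the lowest GM-CSF library was 11.9-fold above the highest control. The log2 fold change was 5.20 ± 0.59 (SE; edgeR adjusted p = 1.79e-05), and the ratio of summed reads per total was 37.3 with a counting interval of 18.6 to 87.4. Control replicate 1 held 6 of the 8 control reads, and without it the fitted value was 6.48. The Poisson interval of GM-CSF replicate 1 (4.96 to 7.38 CPM) lay above that of GM-CSF replicate 3 (2.30 to 3.81 CPM).

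Ccl8 was the member without a signal under GM-CSF. All 3 GM-CSF libraries had 0 Ccl8 reads, which allows up to 0.140 to 0.180 CPM per library at 3 reads. Control replicate 3 had 8 reads (0.385 CPM, Poisson interval 0.166 to 0.758) and control replicates 1 and 2 had 0. Taking 3 reads over the GM-CSF group as the limit, Ccl8 was at least 2.09-fold lower with GM-CSF, or at least 1.34-fold by the 95% counting interval of the ratio, which includes the error of the 8 control reads. This rests on control replicate 3 alone, without which no library held a read. That library also stood apart in megakaryocyte and platelet markers, with 235 reads of Pf4 against 3 and 4 in control replicates 1 and 2, and 70 reads of Itga2b against 14 and 18. Their part in the Ccl8 reads was not tested. The gene did not pass the filter on low counts and was not tested in the main fit. In the fit without a filter its edgeR adjusted p was 0.125. Ccl7 and Ccl12 passed that filter only through the GM-CSF libraries, so their being called is partly fixed by having been tested.

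**Figure D1:**
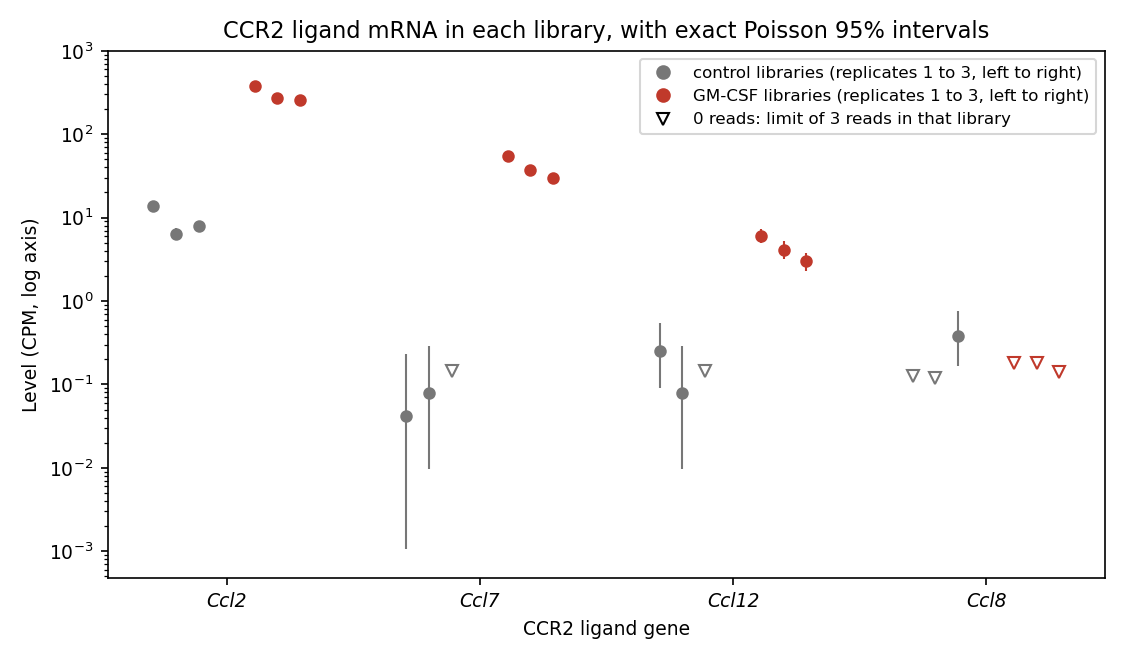
Level of each CCR2 ligand gene in CPM (vertical log axis) in the 3 control libraries (grey) and the 3 GM-CSF libraries (red). Bars are exact Poisson 95% intervals of the read counts and open triangles mark libraries with 0 reads at the limit of 3 reads. Ccl2, Ccl7 and Ccl12 are higher in every GM-CSF library than in any control library, while 8 Ccl8 reads appear in control replicate 3 only.

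The 3 members with reads under GM-CSF kept the same order among the treated libraries. Replicate 1 was the highest, replicate 2 intermediate and replicate 3 the lowest for Ccl2, Ccl7 and Ccl12 alike. The highest library exceeded the lowest 1.48-fold for Ccl2, 1.82-fold for Ccl7 and 2.04-fold for Ccl12. Of 10 inflammatory mediator genes with at least 10 GM-CSF reads, such as Il1b and Cxcl3, 8 were also highest in GM-CSF replicate 1, as were 28.5% of the 11653 genes with at least 60 reads in all. The part of that library in the result was not tested. Without it the log2 fold changes were 4.84 for Ccl2, 9.42 for Ccl7 and 4.88 for Ccl12, beside 5.05, 9.71 and 5.20 in the main fit. In the controls Ccl2 was highest in control replicate 1, as were 1 of 9 such mediator genes and 29.8% of the 11653 genes. Of other CC chemokine genes with at least 10 reads in the group, 5 of 8 were highest in control replicate 1. In GM-CSF replicate 1 it was 4 of 10.

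Because the 3 genes share libraries, their reads can be set against each other within each one. Per 100 Ccl2 reads there were 0.307, 1.25 and 0 Ccl7 reads in control replicates 1, 2 and 3 and 14.4, 13.4 and 11.6 in the GM-CSF libraries. The mean ratio was 0.519 ± 0.651 in controls and 13.1 ± 1.39 with GM-CSF (SD, n = 3; exact two-sided permutation p = 0.1, the smallest that 3 against 3 libraries allow, and 0.15 adjusted over the 3 ratios tested). Every treated library thus held more Ccl7 per Ccl2 than any control. For Ccl12 the corresponding values were 1.84, 1.25 and 0 in controls and 1.59, 1.49 and 1.15 with GM-CSF, and these overlapped. Their means of 1.03 ± 0.940 and 1.41 ± 0.230 could not be told apart (SD, n = 3; exact two-sided permutation p = 0.8, adjusted 0.8).

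**Figure D2:**
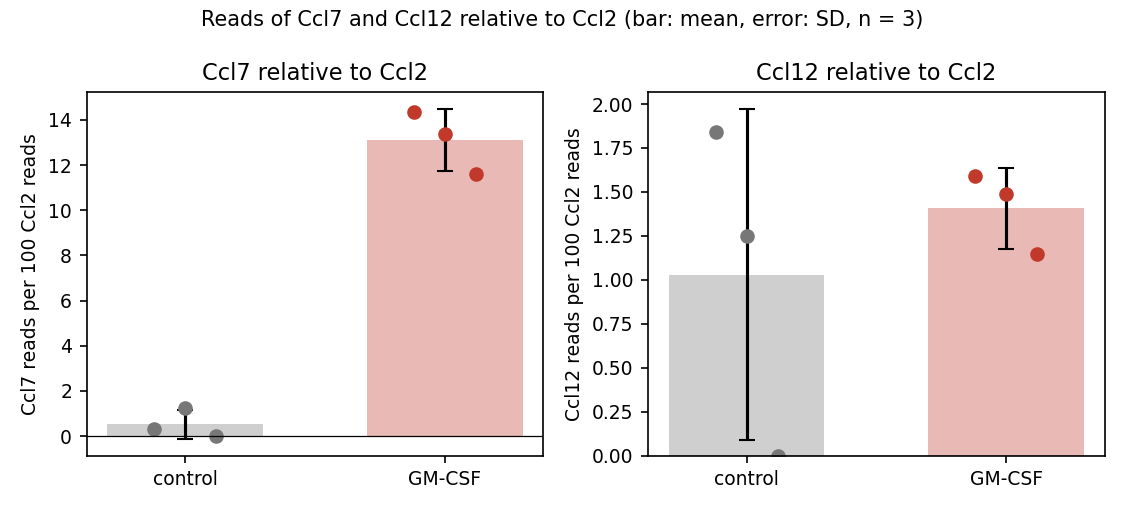
Reads of Ccl7 (left) and Ccl12 (right) per 100 Ccl2 reads in the control (grey) and GM-CSF (red) libraries. Points are libraries, bars are means and error lines are SD (n = 3). The ratio for Ccl7 rose from 0.519 to 13.1, whereas the points for Ccl12 overlap.

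Levels were compared between genes after dividing CPM by the length of the longest protein-coding transcript, in kilobases (CPM per kb). In the GM-CSF libraries the order was Ccl2, Ccl7, Ccl12 and Ccl8, with no overlap between neighbours. Ccl2 was at 319 to 471, Ccl7 at 37.6 to 68.6 and Ccl12 at 5.55 to 11.3 CPM per kb, and Ccl8 was at 0. In control libraries only Ccl2 stood apart, at 7.80 to 16.7 CPM per kb, and the other members, with at most 8 reads in a group, could not be ordered. Of the reads of the 4 genes, Ccl2 made up 97.2% in the controls (exact Clopper-Pearson 95% interval 95.6% to 98.3%, of 668 reads) and 87.3% with GM-CSF (86.8% to 87.7%, of 18980). The intervals of these shares cover counting error in pooled reads and leave out the spread among libraries. By library, Ccl2 made up 97.9%, 97.6% and 95.3% in control replicates 1, 2 and 3. In GM-CSF replicates 1, 2 and 3 it made up 86.2%, 87.1% and 88.7%. The values of GM-CSF replicates 1 and 3 lie outside the pooled interval. The share of Ccl7 was 0.449% (0.0927% to 1.31%) in controls and 11.5% (11.04% to 11.95%) with GM-CSF. By library it was 0.300%, 1.22% and 0% in control replicates 1, 2 and 3 and 12.4%, 11.6% and 10.3% in GM-CSF replicates 1, 2 and 3. The share of Ccl12 was 1.20% (0.518% to 2.35%) in controls and 1.23% (1.08% to 1.40%) with GM-CSF. The control value rests on control replicate 1, without which it was 0.597% (0.0724% to 2.14%).

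Not every gene of the cluster had reads. Going downstream from Ccl2, Ccl7 starts 10.1 kb, Ccl11 22.3 kb, Ccl12 66.3 kb and Ccl8 79.6 kb after it. Ccl11 had 0 reads in all 6 libraries, so the genes that rose, Ccl2, Ccl7 and Ccl12, did not form an unbroken stretch. The next CC chemokine gene, Ccl1, which encodes a CCR8 ligand and lies on the minus strand, also had 0 reads in all 6 libraries.

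**Figure D3:**
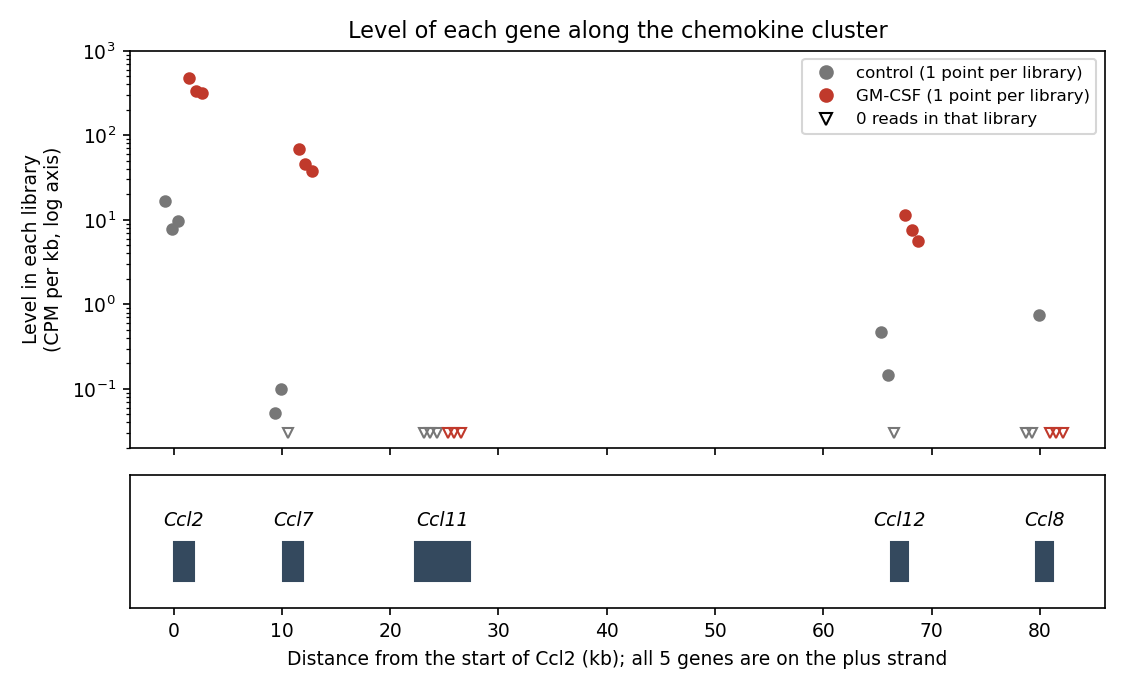
Level in CPM per kb (upper panel, log axis, 1 point per library; open triangles mark 0 reads) of the genes of the cluster, placed by distance in kb from the start of Ccl2 (lower panel). Ccl2, Ccl7 and Ccl12 are higher in the GM-CSF libraries (red) than in controls (grey), with Ccl11 at 0 reads between them and Ccl8 at 0 reads in every GM-CSF library.

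The promoters of Ccl12, which rose, and of its neighbour Ccl8, which had no reads under GM-CSF, are printed to let the pair be compared. Each is the 250 bases before the gene start from RefSeq, build GRCm38.p6, plus strand, at chr11:82101595-82101844 for Ccl12 and chr11:82114935-82115184 for Ccl8, with matches to the motifs searched in capitals.
Ccl12: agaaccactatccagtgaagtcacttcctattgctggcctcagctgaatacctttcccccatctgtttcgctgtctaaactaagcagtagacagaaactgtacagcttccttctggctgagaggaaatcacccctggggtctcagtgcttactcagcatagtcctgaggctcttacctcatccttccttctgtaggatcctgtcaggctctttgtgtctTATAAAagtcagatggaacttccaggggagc
Ccl8: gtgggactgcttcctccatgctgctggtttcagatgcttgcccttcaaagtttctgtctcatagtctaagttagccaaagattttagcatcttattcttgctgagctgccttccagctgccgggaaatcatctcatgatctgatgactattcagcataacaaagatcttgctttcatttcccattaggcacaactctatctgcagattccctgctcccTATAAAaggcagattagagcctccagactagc
Both hold the TATA box TATAAA, which begins at -31 in Ccl12 and at -32 in Ccl8, counted from the gene start. That motif was found on either strand in 12.4% of 32851 promoters of this length. Neither held an NF-kB-like motif, GGG and CC with any 5 bases between them (45.8% of all promoters), AP-1 TGANTCA (6.75%), STAT TTCNNNGAA (7.02%), the CCAAT box CCAAT (33.8%), the GC box GGGCGG (32.7%) or the interferon response core, a pair of GAAA with any 2 bases between them (2.98%). These searches covered both strands, and a motif outside this window or with other letters would not be seen. The pair were identical at 65.2% of 230 aligned bases.

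Against the other CC chemokines, Ccl2 moved by mean level per length from 4th in controls, after Ccl6, Ccl9 and Ccl3, to 2nd with GM-CSF. Over the 20 CC chemokine genes compared, 15 of them with a read, the 4 members made up 0.857 ± 0.270% of the summed level per length in controls and 26.9 ± 3.22% with GM-CSF (SD, n = 3). Under GM-CSF Ccl2, at 376 ± 82.6 CPM per kb, came after Ccl6 (499 ± 67.6), a chemokine that myeloid cells make constitutively. The ranges of the pair overlapped, but within each GM-CSF library Ccl6 was above Ccl2. Ccl2 was above Ccl3 (233 ± 20.9), which encodes macrophage inflammatory protein 1-alpha, in every GM-CSF library. Ccl7, at 50.7 ± 16.0 CPM per kb, overlapped both of its neighbours in the order, the inflammatory chemokine gene Ccl4 (55.8 ± 9.37) and the CCR4 ligand gene Ccl17 (34.2 ± 3.72). Within each GM-CSF library Ccl7 was above Ccl17, whereas its order with Ccl4 varied between libraries. Ccl12 (8.16 ± 2.92) was apart from Ccl17 above it and from the thymus chemokine gene Ccl25 (2.60 ± 0.293) below it.

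Of all genes tested, 32.8% rose and 31.2% fell, or 64.0% together, with a median log2 fold change of 0.01. Of 16 other CC chemokine genes, 10 were tested, of which 5 rose and 4 fell (median log2 fold change 1.05). Those that rose were Ccl3 (2.36), Ccl4 (3.25), the eotaxin-2 gene Ccl24 (7.78), and Ccl17 and Ccl22, whose products bind CCR4. Ccl17 had 3 control reads and a ratio of 410 (counting interval 140.0 to 1993), and Ccl22, without a read in any control library, was higher by at least 125-fold. Both passed the filter on low counts only through the GM-CSF libraries, so their being called is partly fixed by having been tested. Those that fell were Ccl6 (-1.02), Ccl9 (-0.72), Ccl5 (-1.34) and Ccl25 (-0.60). The call of Ccl5 ended without control replicate 3 (-1.19), and that of Ccl25 without any single library (-0.67 to -0.44) and in 3 other settings.

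**Figure D4:**
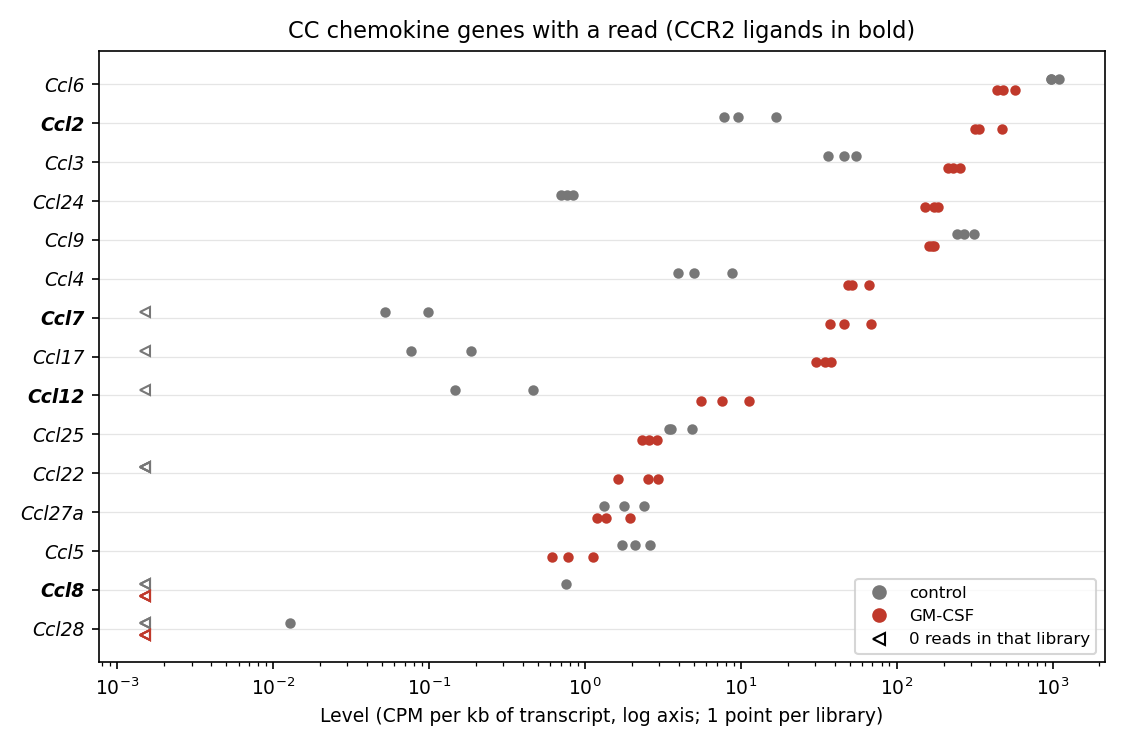
Level in CPM per kb (log axis, 1 point per library) of the 15 CC chemokine genes with a read, ordered by their GM-CSF mean, in control (grey) and GM-CSF (red) libraries; open triangles mark 0 reads. Ccl2 lies among the most abundant genes with GM-CSF, Ccl7 and Ccl12 lie lower and far above their controls, and Ccl8 has reads in 1 control library only.

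The receptor gene fell, while 3 of its 4 ligand genes rose. Ccr2 was at 1963, 1939 and 1727 CPM in control replicates 1, 2 and 3 and at 517, 552 and 494 CPM in the GM-CSF libraries. The groups did not overlap (log2 fold change -1.84 ± 0.09, SE; edgeR adjusted p = 1.85e-08). Of all genes tested, 31.2% were called lower and 34.7% were lower with no overlap. In these bulk samples fewer cells with a message and less of it per cell cannot be told apart. The level of Ccl2 relative to Ccr2, both per length, went from 0.0346 ± 0.0131 to 4.14 ± 0.937 (SD, n = 3; exact two-sided permutation p = 0.1, the smallest possible; adjusted 0.15). Per length, Ccr2 thus exceeded Ccl2 in each control library and was below it in each GM-CSF library. This reversal depends on the lengths used, 5728 bases for Ccr2 and 813 for Ccl2. In CPM, Ccr2 stayed above Ccl2, which was at 383, 275 and 259 in GM-CSF replicates 1, 2 and 3. Ccr1, which encodes a receptor that CCL7 can also use, rose by 1.65 on the log2 scale.

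Inside the cell, CCR2 works through inhibitory G proteins, phosphoinositide 3-kinase and arrestins. Of 18 genes of this signalling list, 4 rose and 9 fell, with 5 not called (median -0.27), a share of called genes near the 64.0% of all genes tested. The largest falls were in Rgs2 (-2.78), a regulator that shortens G protein signals, and in the G protein subunit gene Gng2 (-1.61). The rises were small, in the G protein subunit genes Gnai3 (0.37) and Gnb1 (0.52), in Pik3r5 (0.56), a regulatory subunit of the kinase, and in Nup85 (0.32), whose product binds CCR2. The Nup85 call ended with upper quartile scaling (0.21).

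Factors that are known to act on chemokine genes or their messages moved in both directions. Of 25 transcription factor and NF-kB pathway genes, 16 rose and 5 fell (median 1.05), beside 32.8% and 31.2% of all genes. Egr1 (8.20) and the AP-1 subunit gene Fosl1 (5.95) rose most, and those that fell included Fos (-1.35), Cebpd (-1.19), Stat5b (-0.55) and Stat5a (-0.40). Of 10 genes for mRNA decay and stability factors, 7 rose and 2 fell (median 0.62), beside the same shares of all genes. Zfp36l1 (5.04) and Zfp36 (1.96), which encode proteins that bind AU-rich elements and promote decay of cytokine messages, rose most. Tia1 (-0.39) and Zfp36l2 (-0.24) fell, though the latter overlapped between groups and was not called when control replicate 1, control replicate 2, GM-CSF replicate 1 or GM-CSF replicate 3 was left out (-0.22 to -0.18).

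Some MCP proteins are modified after they are made. Qpct, which encodes a glutaminyl cyclase that forms the N-terminal pyroglutamate, rose from 23.2 ± 2.29 to 62.0 ± 5.70 CPM (SD, n = 3; log2 fold change 1.42), whereas the Golgi cyclase gene Qpctl had a log2 fold change of -0.12 and was not called (edgeR adjusted p = 0.338). Of the 9 tested genes for processing enzymes, 4 rose and 2 fell (median -0.12), which is also near the 64.0% of all genes. The other rises were in the matrix metalloproteinase genes Mmp12 (4.23) and Mmp14 (2.16), with GM-CSF means of 1.17 and 2.13 CPM, and in the serine protease gene Ctsg (0.31, overlapping between groups and not called in 4 alternatives). Mmp8 (-1.61) and the peptidase gene Dpp4 (-0.68, not called without control replicate 2) fell.

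Chemokines are also held on glycosaminoglycans, sugar chains of proteoglycans. Of 15 genes for making, carrying or binding such chains, 6 rose and 5 fell, with 4 not called (median 0.47), again near the 64.0% of all genes. The proteoglycan gene Sdc4 rose by 5.23 and Tnfaip6, whose product binds glycosaminoglycans and chemokines, by 4.62 on the log2 scale. Those that fell were the heparanase gene Hpse (-1.99), the proteoglycan genes Sdc3 (-1.46) and Gpc1 (-0.44), and the heparan sulfate synthesis genes Ext2 (-0.52) and Ndst1 (-0.52). Ndst1 was not called when control replicate 1, control replicate 3 or GM-CSF replicate 2 was left out (-0.49 to -0.39).

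Inflammatory mediator genes and interferon-stimulated genes are often described beside CCR2 ligands. CCL2 and CCL7 are known as products of NF-kB-driven inflammation, and Ccl12 and Ccl8 are also known as interferon-inducible in mouse myeloid cells. All 10 inflammatory mediator genes tested rose (median 5.63), beside 32.8% of all genes, among them the stress response gene Ier3 (6.58) and the neutrophil chemokine gene Cxcl3, which had 3 control reads and a ratio of 1009 (counting interval 345 to 4898). All 13 genes listed as interferon-stimulated and tested fell (median -2.17), beside 31.2% of all genes, led by Ifit3 (-4.11) and Mx1 (-3.27). The split depends on how genes were placed. Cxcl10 was listed with the inflammatory mediators and rose (2.95, from 27.1 to 209 CPM). Cxcl9 was listed with the interferon-stimulated genes and fell (-2.13, from 1.35 to 0.291 CPM). These lists were chosen with results of these libraries known, and genes such as Cxcl3 passed the filter only through the GM-CSF libraries, so the counts are a description. Ccl12 rose in the same libraries in which the genes of the interferon list were low. Ccl8 was without reads there and also in control replicates 1 and 2, where Ifit3 was at 40.7 and 70.7 CPM. Control replicate 3, with 8 Ccl8 reads, had Ifit3 at 43.5 CPM. A link between Ccl8 and the interferon list was not tested.

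**Figure D5:**
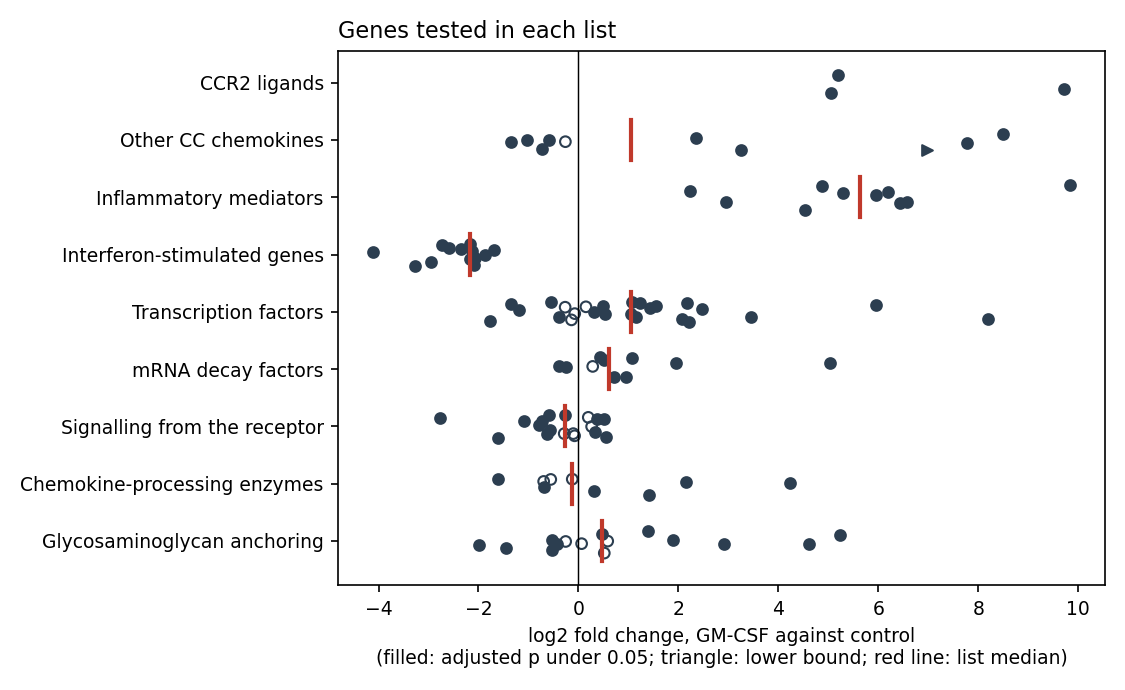
Log2 fold change of each gene tested (horizontal axis) in the CCR2 ligand group and in 8 companion lists. Filled symbols passed an edgeR adjusted p under 0.05, the triangle is the lower bound of Ccl22, and red lines are medians, drawn for the companion lists only. The 3 ligand genes tested lie within the range of the inflammatory mediators, and the genes listed as interferon-stimulated all lie below 0.

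The genes closest to each member in pattern were sought by the Euclidean distance between log2 CPM values, each gene centred on its own mean over the 6 libraries, among 11730 other tested genes. For Ccl2 these were Kcnk13, a potassium channel gene (distance 0.657, log2 fold change 4.84), Srxn1, an antioxidant enzyme gene (0.681, 4.74), and the transcription factor gene Tcf7l2 (0.772, 5.21). For Ccl7 they were Thbs1, which encodes the matrix protein thrombospondin 1 (0.790, 7.70), Cxcl3 (0.838, 9.83) and Clec4n, a C-type lectin receptor gene (0.865, 7.68). The fitted log2 fold change of Ccl7, 9.71, was larger than those of Thbs1 and Clec4n. For Ccl12 they were Ankrd55 (0.524, 5.16) and the receptor genes Tnfrsf9 (0.762, 4.81) and Ngfr (0.766, 6.27), at mean GM-CSF levels of 5.82, 2.95 and 4.87 CPM. Ccl2 and Ccl12 were at a distance of 1.14 from each other, and Ccl7 was at 3.99 from Ccl2 and 4.59 from Ccl12. With 6 libraries in 2 groups, this measure mostly reads the size of the change. The log2 CPM values include a small added count (prior count 2), which shrinks the changes of genes with few reads.

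Libraries held 16643228 to 25232956 reads assigned to genes, at which 3 reads equal 0.119 to 0.180 CPM. All 12 markers of the labelled cell type, monocytes, had reads, with a summed level of 63949 to 73351 CPM in controls and 30306 to 32963 with GM-CSF, of which the lysozyme gene Lyz2 made up 80.4% in controls. By gene, 7 of the 12 fell and 2 rose, Cd14 from 39.7 to 851 CPM and Nr4a1 from 74.6 to 304 CPM. Markers of non-haematopoietic cells that can make CCR2 ligands were at low levels. Fibroblast and stromal markers (5 of 9 with a read; Col1a2, Col3a1, Lum and Pdgfra at 0) summed to 1.04 to 2.02 CPM in controls and 1.44 to 2.56 with GM-CSF, led by Pdgfrb, which by itself rose from 0.538 to 1.73 CPM (11, 17 and 10 reads against 34, 17 and 46; log2 fold change 1.69, edgeR adjusted p = 0.00415). Its part in the ligand results was not tested. Endothelial markers (5 of 7; Tek and Emcn at 0) summed to 1.08 to 2.502 and 1.01 to 2.24 CPM, led by Sele. Tissue macrophage markers (12 of 12), led by Vcam1, summed to 89.4 to 109 and 91.3 to 97.5 CPM. Within that list Mrc1 (2.06) and Mertk (2.17) rose and Siglec1 (-3.04) and Cd163 (-2.12) fell on the log2 scale, and the other 6 tested were not called. In all 3 lists the groups overlapped (exact two-sided permutation p = 0.3 for fibroblasts, 0.8 for endothelium and 0.4 for macrophages; adjusted over 12 lists 0.45, 0.873 and 0.533).

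Sums that were lower in every GM-CSF library than in any control were those of neutrophil markers (15789 to 20828 against 10527 to 13330 CPM, 9 of 9), B cell markers (60.003 to 70.5 against 34.2 to 42.9, 6 of 6, led by Cd79b), dendritic cell markers (16.1 to 19.0 against 7.64 to 9.30, 6 of 6, led by Flt3) and erythroid and megakaryocyte markers (2.38 to 18.6 against 1.32 to 2.20, 5 of 8, with Hba-a1, Hbb-bs and Hbb-bt at 0). In the neutrophil list the genes that fell included Ngp (-1.25), Camp (-1.43), Ltf (-0.90) and Mmp8 (-1.61), whereas Mpo, at 4164 and 4677 CPM, was not called (edgeR adjusted p = 0.263). Of 5 B cell genes tested, only Cd79b was called (-1.27). Flt3 made up 64.9% of the dendritic sum in controls. Of 6 dendritic genes tested 3 fell and 2 were not called, while Zbtb46 rose (1.63, from 0.332 to 1.08 CPM, overlapping between groups). The highest erythroid and megakaryocyte sum was that of control replicate 3. The other controls were at 2.71 and 2.38 CPM. Of 4 genes of that list tested, 3 fell, Klf1 (-2.02), Itga2b (-1.96) and Gp9 (-1.83), and Pf4 was not called (edgeR adjusted p = 0.159). Itga2b and Gp9 were also highest in control replicate 3, with 70 and 52 reads. Klf1 had 19, 16 and 19 reads in control replicates 1, 2 and 3 and 6, 4 and 0 in GM-CSF replicates 1, 2 and 3. Each of these 4 lists had an exact permutation p of 0.1, the smallest possible, and 0.24 adjusted over the 12 lists, as had the monocyte list. Their part in the ligand results was not tested. Markers of eosinophils (11.2 to 15.8 against 9.83 to 11.5 CPM, 4 of 5, Epx at 0, led by Siglecf), mast cells and basophils (21.9 to 40.9 against 29.4 to 42.1, 7 of 7, led by Kit), T cells (2.29 to 3.71 against 2.84 to 3.397, 6 of 6, led by Lck) and NK cells (0.626 to 1.67 against 0.421 to 1.12, 4 of 5, Klra8 at 0, led by Gzma) overlapped between groups. Among mast cell and basophil markers Gata2 rose by 4.48 and Ms4a2 by 1.04 on the log2 scale, with Gata2 at 0.487 CPM in controls and 10.7 CPM with GM-CSF, while Kit fell by 0.54. No summed list for another cell type was higher in every GM-CSF library than in any control.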

How the data were processed

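Poly(A) RNA of 6 libraries was sequenced in pairs of 150-base reads. The deposited values are raw read counts per gene symbol. Tools listed, without roles, in the submitters' processing notes are edgeR, HTSeq 0.6.1p1, STAR 2.5.2a and Trim Galore 0.4.4, and the build is mm10. The annotation and the use of strand were not given in the sources used here. Entries naming no gene (28.8% to 30.6% of counts per library) were left out. Columns were matched to samples by title and groups taken from the source labels.

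Counts were fitted in R 4.3.3 with edgeR 4.0.16 (TMM, filterByExpr with a minimum count of 10 and total of 15, two-sided quasi-likelihood test, group as the only term, Benjamini-Hochberg over all 11731 genes tested, threshold 0.05); the SE is the absolute log2 fold change over the square root of F. "Rose" and "fell" are used of genes past this threshold. The procedure was tested on simulated data. Fewer genes changed there, and by less than Ccl2, Ccl7 and Ccl12 did here, so that test does not cover these conditions. Summed levels and ratios were compared by exact permutation tests. Gene models and transcripts are from GENCODE M21 (GRCm38) and promoters from RefSeq; 2 of the 4 members matched the promoter table. Coding sequences were aligned globally with Biopython 1.88.

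The members and gene lists were chosen with earlier results of these data known. Named genes are the 4 members, Ccr2, in each list the 2 called genes with the largest change (among those whose log2 CPM averaged 1 or more) and every gene that moved one way where 5 or fewer did, the 3 nearest genes to each member, and the top marker of each cell type. Qpctl, Il1b, Cxcl9, Cxcl10 and marker genes that move apart from their list's sum were named after their values were seen. Some results that this rule covers are not reported here. Alternatives were other scalings (DESeq2-type, library size, upper quartile), no filter or 1 CPM in 3 libraries, DESeq2 1.42.0, limma-voom (limma 3.58.1), a robust prior, a replicate block, removal of the 10 most abundant genes and leaving out each library.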

Additional observations from a re-analysis of the deposited data

How the results depend on the processing

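Ccl2, Ccl7 and Ccl12 kept their direction and their call in all 16 alternatives. Leaving out 1 library at a time gave log2 fold changes of 4.83 to 5.45 for Ccl2, 9.24 to 10.48 for Ccl7 and 4.69 to 6.48 for Ccl12, and the other settings gave 4.93 to 5.10, 9.52 to 9.89 and 5.08 to 5.58. The number of genes past the threshold, 7511, was 6739 to 7739 without 1 library and 7292 to 7673 otherwise, and no list's count moved by over 1.5 times. Upper quartile scaling moved the median log2 fold change of all genes from 0.01 to -0.11. Same-numbered libraries deviated together by correlations of 0.0727, 0.00984 and 0.00380 only, and not every library correlated best with its own number. These values show no clear pairing by number. They cannot exclude one, because libraries of shared origin need not deviate together over all genes. With the replicate block, Ccl2 was at 5.09, Ccl7 at 9.72 and Ccl12 at 5.29, with 7493 genes called. TMM-scaled CPM moved no member's mean by more than its SD. Depth limits Ccl8 in all libraries and Ccl7 and Ccl12 in the controls, where at most 8 reads stand behind a group.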
